A study of Sus scrofa with 6 samples.

Results

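The E2F, RB and FOXM1 regulators of the cell cycle are described here by 10 genes: the transcription factors E2F1, E2F3, E2F4, E2F7 and E2F8, their binding partner TFDP1, the pocket proteins RB1 and RBL1, and the later acting factors FOXM1 and MYBL2. They were found by gene symbol, and all 10 were among the 31908 pig gene IDs of the expression table. RNA was sequenced from IPEC-J2 cells, a non-transformed epithelial line from the jejunum of newborn piglets, in 6 libraries. The 3 libraries of the CON group came from cells given PBS, and the 3 libraries of the CDCA group came from cells given 50 μM chenodeoxycholic acid (CDCA), a primary bile acid, each for 24 h. The study asked how CDCA acts on the proliferation of these cells. The RNA-seq covered 1 cell line, 1 dose and 1 time point, and the study calls the libraries of a group biological replicates. The sources used here do not say whether they came from separate cultures, so a p-value measures only the spread between these libraries, which may in part be technical.

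Whether a cell enters S phase is set by the balance between E2F factors and the pocket proteins RB1, RBL1 (p107) and RBL2 (p130). Each E2F of the classical type binds DNA as a pair with a DP protein such as TFDP1, and a pocket protein bound to that pair keeps its target genes silent until cyclin-dependent kinases phosphorylate the pocket protein. E2F1, E2F2 and E2F3 activate genes of DNA synthesis. E2F4 and E2F5 act mostly with pocket proteins as repressors, E2F6 represses without them, and E2F7 and E2F8 bind DNA without a DP partner and repress the genes that the activators had turned on. Later in the cycle MYBL2 (B-MYB) and then FOXM1 join the MuvB complex (LIN9, LIN37, LIN52, LIN54 and RBBP4) and turn on the genes of G2 and mitosis. In the intestine these factors are known for their work in the dividing cells of the crypt.

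Expression was given as TPM, an abundance scaled to transcript length and to the total of the library, and the TPM of the listed transcripts of a gene were summed. A gene was tested where its mean over the 6 libraries was at least 1 TPM, by limma on log2(TPM + 1) with Benjamini-Hochberg adjustment over the 8708 genes tested. A gene passed the test where the false discovery rate (FDR) was under 0.05, and it was called where it also changed by more than 2-fold on that scale, which understates the change of weakly listed genes. The listed TPM summed to between 351770 and 366073 per library, and the values carry no read counts per gene, so the number of reads behind each value is not known here, although the study states the clean reads of its samples. Among genes that dividing cells use, some were listed near 0, such as PCNA, the sliding clamp of DNA replication, at no more than 0.53 TPM in any library, and TOP2A, a topoisomerase, at no more than 0.19 TPM. A low listed value is therefore not read here as absence of the mRNA.

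The epithelial label was checked against 10 markers. EPCAM, KRT8, KRT18, CLDN4 and ELF3 reached 14.7 TPM or more in every library, whereas CDH1, CLDN7 and VIL1 stayed at or under 0.64 TPM, CLDN3 was listed at 0, and KRT19 was not found by symbol. CLDN4, a tight junction protein, rose from 225 ± 11 TPM in CON to 806 ± 51 TPM in CDCA (SD, n = 3), ELF3, an epithelial transcription factor, from 15.7 ± 1.6 to 30.2 ± 3.0 TPM, and EPCAM from 122 ± 3.7 to 160 ± 11 TPM (limma FDR 4.0e-06, 0.00034 and 0.0015). KRT18, a keratin, rose by less, from 65.6 ± 0.90 to 75.1 ± 3.9 TPM (limma FDR 0.013), and its partner KRT8 was at 226 ± 9.98 and 208 ± 17 TPM and did not pass (log2 fold change -0.12, limma FDR 0.18). The 11 markers of immune cells, fibroblasts and endothelium summed to 4.15 to 5.84 TPM in CON and 8.12 to 8.85 TPM in CDCA, and PTPRC, which marks leukocytes, was at 0.01 TPM or less. The higher sum lay in CD68, a lysosomal glycoprotein also used to mark macrophages, with 0, 0 and 0.26 TPM in the CON libraries against 5.33, 4.75 and 4.44 TPM in the CDCA libraries. PECAM1, an endothelial adhesion protein, went from 1.92 ± 0.24 to 1.22 ± 0.11 TPM (SD, n = 3; limma FDR 0.025). The part of these markers in the results below was not tested.

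Of the 10 regulators, 6 were high enough to be tested. E2F8, FOXM1, RB1 and RBL1 were lower in CDCA at an FDR under 0.05, against 23.9% of all tested genes that passed in that direction. None was higher, against 29.3% of all tested genes. With totals computed without the genes of mitochondrial DNA, which shifted the median log2 fold change of all tested genes from 0.05 to -0.10, the whole table had 2905 genes lower and 1680 higher in place of 2085 and 2550. Under that scaling 7 regulators passed as lower in place of 4, with TFDP1, MYBL2 and E2F3 added. With the totals as deposited, E2F8 and FOXM1 were also called lower, against 3.90% of all tested genes, and none was called higher, against 3.51%. In 4 of the 6 tested (E2F8, RB1, RBL1 and FOXM1) every CDCA library was below every CON library, as in 27.8% of all tested genes, and in none was it above, as in 33.7%. The same held for E2F3, which was not tested. TFDP1 and MYBL2 did not pass the test. E2F1, E2F3, E2F4 and E2F7 lay under 1 TPM on average and were not tested. Less mRNA of a regulator in such bulk RNA can mean fewer cells in the phase that uses it or less mRNA in each cell. The RNA alone cannot tell these apart. At the same dose and time, the study reported by flow cytometry a larger share of cells in G0/G1 and smaller shares in S and G2/M. It also reported higher proliferation in an EdU assay. How far these measures account for the mRNA levels was not tested.

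**Figure D1:**
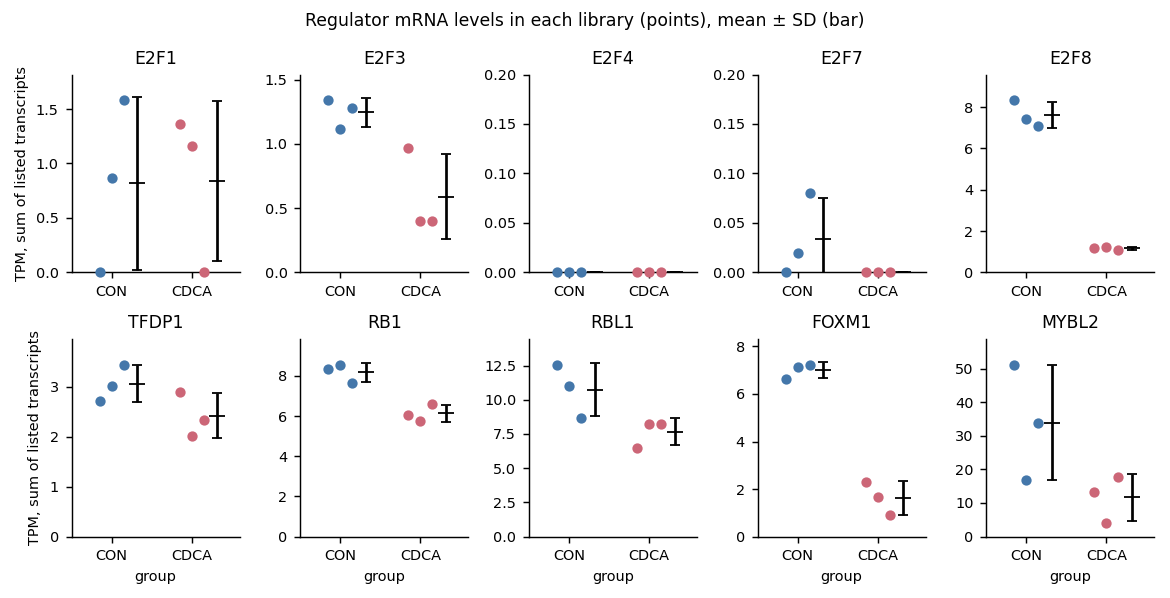
TPM, summed over the listed transcripts, of each of the 10 regulators in every library, with 3 CON points and 3 CDCA points per panel and the mean ± SD as a bar beside them. The groups are separate for E2F3, E2F8, RB1, RBL1 and FOXM1, and the vertical axes start at 0 and differ between panels.

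E2F8 (ENSSSCG00000013352), the repressor that acts without a DP partner, fell furthest of the 6 on the log2(TPM + 1) scale. CON replicates 1 to 3 had 8.33, 7.42 and 7.11 TPM, and CDCA replicates 1 to 3 had 1.20, 1.23 and 1.07 TPM. The 2 groups lay far apart, with a mean of 7.62 ± 0.63 TPM in CON and 1.17 ± 0.085 TPM in CDCA (SD, n = 3), a ratio of CON to CDCA of 6.53. By limma the log2 fold change was -1.99 (SE 0.09, FDR 1.2e-05), and 39 of the 8708 tested genes, or 0.448%, had a lower one. The highest of its 2 listed transcripts made up 98.8% of the CON sum and all of the CDCA sum, so the gene and the transcript gave nearly the same value.

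FOXM1 (ENSSSCG00000000739), the forkhead factor that drives mitotic genes, had 6.61, 7.13 and 7.24 TPM in the CON libraries against 2.31, 1.65 and 0.89 TPM in the CDCA libraries. The CON libraries lay close together and the CDCA libraries were spread more widely, but every CDCA library was below every CON library. Its mean fell from 6.99 ± 0.34 to 1.62 ± 0.71 TPM (SD, n = 3), a ratio of CON to CDCA of 4.33 (limma log2 fold change -1.65, SE 0.20, FDR 0.00061). Of all genes tested, 83 had a lower log2 fold change. The first of its 2 listed transcripts went from 4.59 ± 0.88 TPM in CON to 0.653 ± 0.28 TPM in CDCA (log2 fold change -1.76, SE 0.18, limma FDR 0.00056 over 12205 transcripts tested by themselves, of which 18.7% passed as lower), but it reached the filter of 1 TPM only through CON. The other transcript, which also reached it only through CON, went from 2.41 ± 0.75 to 0.963 ± 0.57 TPM and did not pass (log2 fold change -0.82, SE 0.29, limma FDR 0.061). As a share of the gene's TPM, the first transcript held 65.5% ± 11 in CON and 44.1% ± 20 in CDCA (SD, n = 3), and the libraries of the 2 groups overlapped in this share, so a shift between the transcripts was not resolved.

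MYBL2 (ENSSSCG00000007366), the MYB protein of S phase and G2, had the highest TPM of the 10 regulators in CON and also the widest spread in TPM. The CON libraries had 51.3, 16.8 and 33.9 TPM and the CDCA libraries 13.2, 4.09 and 17.9 TPM. The groups overlapped, because CDCA replicate 3 lay above CON replicate 2. The log2 fold change of -1.52 (SE 0.57, 95% interval -2.88 to -0.16) was close in size to that of FOXM1, but its adjusted value did not pass the threshold (limma FDR 0.060). With each library left out the log2 fold change ran from -1.94 without CON replicate 2 to -0.96 without CDCA replicate 2. Leaving out CON replicate 2 or CDCA replicate 3 brought it under the threshold (limma FDR 0.036 and 0.043), and the other 4 libraries left out in turn gave an FDR between 0.084 and 0.16. Totals without the mitochondrial DNA genes and a filter at a mean of 5 TPM also brought it under (limma FDR 0.045 and 0.042). The spread was unusual for a gene of this level: the coefficient of variation of MYBL2 was 50.7% in CON and 59.8% in CDCA, whereas the median over genes with a mean within 2-fold of its own was 5.68% in CON (1737 genes) and 6.70% in CDCA (2952 genes). Of these like genes, 99.3% in CON and 98.7% in CDCA varied less. A single listed transcript held 99.6% of the CON sum and 99.4% of the CDCA sum.

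RB1 (ENSSSCG00000009401), the retinoblastoma protein, had 8.33, 8.57 and 7.65 TPM in the CON libraries and 6.07, 5.75 and 6.59 TPM in the CDCA libraries. The groups did not overlap, but the change was small, from 8.18 ± 0.48 to 6.14 ± 0.42 TPM (SD, n = 3; limma log2 fold change -0.36, SE 0.08, FDR 0.0069). Among all tested genes, 20.0% had a lower log2 fold change than RB1.

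RBL1 (ENSSSCG00000007331), the pocket protein p107, stood at 12.6, 11.0 and 8.67 TPM in the CON libraries and at 6.51, 8.20 and 8.25 TPM in the CDCA libraries. The lowest CON library lay just above the highest CDCA library. Its log2 fold change of -0.43 (SE 0.14) passed the test with a limma FDR of 0.042 but was too small for a call. Whether it passed depended on which libraries were used: the FDR was 0.013 without CON replicate 3 and between 0.061 and 0.12 without any of the others. It also depended on the processing, as given in the last section. The most abundant of its 6 listed transcripts went from 6.53 ± 0.69 to 5.58 ± 1.2 TPM (log2 fold change -0.21, SE 0.15, limma FDR 0.32), and the next, which reached the filter only through CON, from 2.68 ± 1.2 to 0.967 ± 0.47 TPM (log2 fold change -0.88, SE 0.29, limma FDR 0.052). Neither passed by itself, and the groups overlapped in the share of the gene's TPM that each held.

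**Figure D2:**
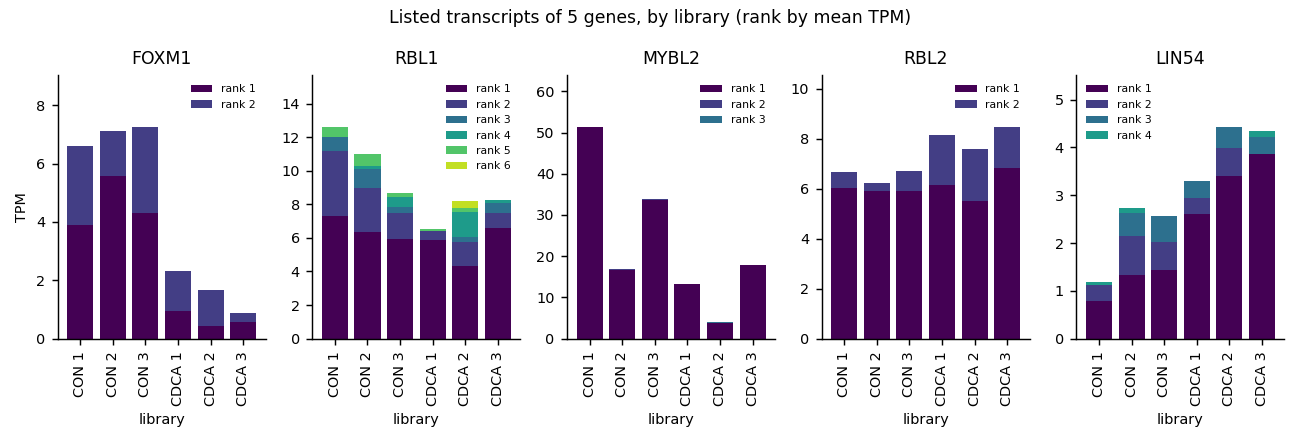
Stacked TPM of the listed transcripts of FOXM1, RBL1, MYBL2, RBL2 and LIN54 in each library, transcripts ranked by their mean TPM over the 6 libraries. MYBL2 is nearly all 1 transcript, FOXM1 is 2 transcripts that were both lower in the CDCA means, and the second transcript of RBL2 makes up more of the bar in every CDCA library than in any CON library.

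TFDP1 (ENSSSCG00000009560), the DP partner of the classical E2F factors, stood at 2.72, 3.02 and 3.44 TPM in the CON libraries and at 2.90, 2.01 and 2.34 TPM in the CDCA libraries. The groups overlapped, and the log2 fold change of -0.25 (95% interval -0.56 to 0.05) did not pass the test (limma FDR 0.14). With totals without the mitochondrial DNA genes it was -0.39 (limma FDR 0.043), a scaling that moved the median of all tested genes by -0.15.

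E2F3 (ENSSSCG00000040178), an activator, summed over 6 transcripts to 1.34, 1.12 and 1.28 TPM in the CON libraries and to 0.97, 0.40 and 0.40 TPM in the CDCA libraries, so every CDCA library was below every CON library. Its mean over the 6 libraries lay just under 1 TPM. When no filter on low values was used, its log2 fold change of -0.52 had a limma FDR of 0.092, and among the alternatives run it passed only in the 2 scalings that lifted it over the filter, without the mitochondrial DNA genes (-0.63, FDR 0.022) and with the listed TPM rescaled to 1000000 (-0.79, FDR 0.044).

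E2F1 (ENSSSCG00000007268), the founding activator of the family, had 0, 0.87 and 1.58 TPM in the CON libraries and 1.36, 1.16 and 0 TPM in the CDCA libraries. Each group held a library at 0 and another above 1 TPM, so these values give no direction. E2F4 (ENSSSCG00000002787) had 1 listed transcript at 0 TPM in all 6 libraries. E2F7 (ENSSSCG00000000950), the close relative of E2F8, had 0, 0.02 and 0.08 TPM in the CON libraries and was listed at 0 in the 3 CDCA libraries, too low for a comparison.

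The order of the levels differed between the groups. In CON, MYBL2 was followed by RBL1 and then by RB1, E2F8 and FOXM1, whose neighbours in that order overlapped in their libraries. TFDP1 came next, with every library below every FOXM1 library, and E2F3 after it. In CDCA, MYBL2, RBL1 and RB1 again came first, with overlapping libraries between neighbours, and E2F8 and FOXM1 had dropped below TFDP1: the mean was 2.42 ± 0.45 TPM for TFDP1, 1.62 ± 0.71 TPM for FOXM1 and 1.17 ± 0.085 TPM for E2F8 (SD, n = 3). The libraries of TFDP1 and FOXM1 overlapped there, as did those of FOXM1 and E2F8 and those of E2F8 and E2F1.

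The other genes of the same families went both ways. E2F2, an activator, fell from 2.04 ± 0.13 to 0.360 ± 0.080 TPM (SD, n = 3; limma log2 fold change -1.16, SE 0.12, FDR 0.00026). MYB, the proto-oncogene, stood at 3.80, 2.44 and 3.43 TPM in the CON libraries and at 1.35, 0.20 and 0.81 TPM in the CDCA libraries, and was called lower as well (log2 fold change -1.28, SE 0.26, limma FDR 0.0063). Both reached the filter through their CON libraries. MYBL1 (A-MYB) fell by less, from 18.4 ± 1.9 to 13.2 ± 0.84 TPM (log2 fold change -0.45, limma FDR 0.0053). Opposite to these, the repressor E2F6 rose from 9.79 ± 0.26 to 16.4 ± 0.84 TPM (log2 fold change 0.69, SE 0.06, limma FDR 0.00013), a higher log2 fold change than 90.2% of the tested genes had. E2F5 had 26.5, 23.3 and 22.3 TPM in the CON libraries and 24.1, 21.6 and 24.0 TPM in the CDCA libraries, with a log2 fold change between -0.23 and 0.14 (95% interval, limma FDR 0.67).

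RBL2 (p130), the pocket protein of resting cells, stood at 6.65, 6.23 and 6.70 TPM in the CON libraries and at 8.15, 7.59 and 8.45 TPM in the CDCA libraries, opposite in direction to RB1 and RBL1. Its log2 fold change of 0.27 (SE 0.07) passed the test (limma FDR 0.016) but not with totals without the mitochondrial DNA genes (0.11, limma FDR 0.22). Without CON replicate 2, CDCA replicate 1 or CDCA replicate 3 its FDR was 0.056, 0.053 and 0.054. The lesser of its 2 listed transcripts, which reached the filter only through CDCA, went from 0.587 ± 0.22 to 1.91 ± 0.25 TPM (log2 fold change 0.88, SE 0.16, limma FDR 0.0064) and from 8.91% ± 3.2 to 23.8% ± 4.2 of the gene's TPM (SD, n = 3), without overlap between the groups. For the main transcript the log2 fold change was 0.04, within its error (SE 0.09, limma FDR 0.75). TFDP2, the other DP partner, was at 0.55 to 0.63 TPM in CON and at 1.17 to 1.53 TPM in CDCA and lay just under the filter. With no filter its log2 fold change was 0.56 (limma FDR 0.019).

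**Figure D3:**
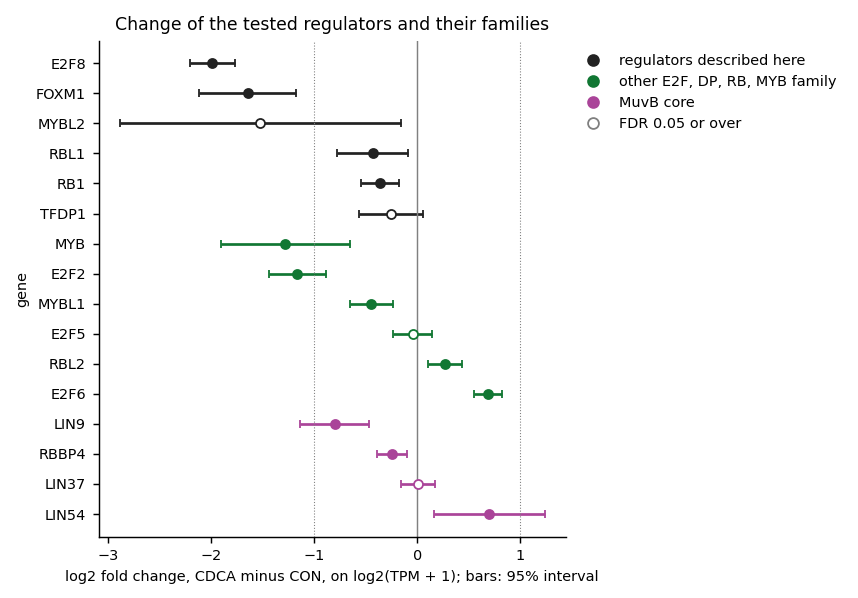
log2 fold change (CDCA minus CON, on log2(TPM + 1)) of the 16 tested genes among the regulators, their families and the MuvB core, with 95% intervals. Filled points passed an FDR of 0.05 and dotted lines mark a 2-fold change. E2F8 and FOXM1 lie to the left of -1 with their whole intervals, the interval of MYBL2 runs from -2.88 to -0.16, and E2F6, LIN54 and RBL2 lie to the right of 0 with their whole intervals.

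Across the 8 E2F genes, the summed TPM was 43.9 to 48.1 in CON and 41.6 to 44.1 in CDCA, and the libraries of the groups overlapped. The make-up of that sum differed more than its size. E2F8 held 16.7% ± 0.58 of it in CON and 2.74% ± 0.18 in CDCA (SD, n = 3). The activators E2F1, E2F2 and E2F3 together held 6.72%, 9.24% and 11.3% in CON and 6.28%, 4.38% and 1.83% in CDCA. These did not overlap, but the lowest CON share lay just above the highest CDCA share. The sum includes E2F1, whose values give no direction. E2F5 and E2F6, each with 1 listed transcript, together held 74.1% ± 1.8 in CON and 93.1% ± 2.3 in CDCA. In TPM, E2F5 was at 24.0 ± 2.2 in CON and 23.3 ± 1.4 in CDCA, and E2F6 at 9.79 ± 0.26 and 16.4 ± 0.84. The shares add to 100% in each library, so a lower share of E2F8 raises the shares of the others. With 3 libraries against 3, an exact two-sided permutation test of such a share cannot go below p = 0.1, so none was used as a result. E2F4 adds nothing to this sum as listed, and an E2F4 mRNA outside the listed transcripts would change every share.

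**Figure D4:**
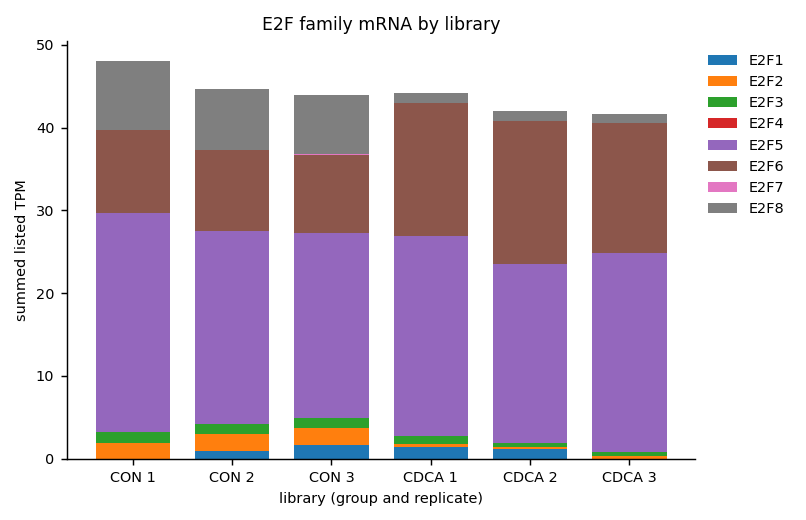
Stacked TPM of the 8 E2F genes in each of the 6 libraries. The bars are 41.6 to 48.1 TPM high, the E2F8 part is 7.11 to 8.33 TPM in CON and 1.07 to 1.23 TPM in CDCA, and the E2F6 part is larger in each CDCA library.

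In the MuvB core, which FOXM1 and MYBL2 join to reach their targets, the subunits differed. LIN9, a subunit that contacts MYBL2, fell from 8.83 ± 1.8 to 4.58 ± 0.29 TPM (SD, n = 3; limma log2 fold change -0.80, SE 0.14, FDR 0.0033), and both of its main transcripts passed by themselves. RBBP4, a histone-binding subunit shared with other chromatin complexes, fell from 67.9 ± 2.1 to 57.1 ± 4.1 TPM (log2 fold change -0.25, limma FDR 0.013). LIN37 was at 18.4 to 21.2 TPM in CON and 18.7 to 20.8 TPM in CDCA (95% interval of the log2 fold change -0.16 to 0.17). LIN54, the DNA-binding subunit, had 1.18, 2.73 and 2.56 TPM in the CON libraries and 3.30, 4.42 and 4.34 TPM in the CDCA libraries. It rose by 0.70 on the log2 scale (SE 0.22, limma FDR 0.035), but without CDCA replicate 2 or CDCA replicate 3 the FDR was 0.098 and 0.096, and with totals without the mitochondrial DNA genes or with no filter on low values it was 0.071 and 0.088. Without CON replicate 1 the log2 fold change was 0.45 (limma FDR 0.037). The LIN54 transcript of highest level passed by itself (log2 fold change 0.98, SE 0.18, limma FDR 0.0061). LIN52 stayed at or under 0.29 TPM and was not tested.

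Upstream of RB1, 8 of 17 cyclins, kinases and inhibitors were tested, and all 8 fell at an FDR under 0.05, against 23.9% of all genes tested. The list was chosen with earlier results of these data known, so the count only describes the list. Their log2 fold changes had a median of -0.81, against 0.05 over all genes. CDK2 and CDC25A were under 1 TPM on average in CDCA and reached the filter through CON, so they had to differ, and the other 6 of 6 fell as well. The genes that fell were of opposite roles. CDKN2C (p18), an inhibitor of CDK4 and CDK6, went from 41.7 ± 1.3 to 9.43 ± 0.57 TPM (log2 fold change -2.04, SE 0.06, limma FDR 3.0e-06). CCNE2, a cyclin that starts S phase, went from 5.85 ± 0.52 to 1.52 ± 0.16 TPM (-1.44, SE 0.10, limma FDR 5.8e-05), and its kinase CDK2 from 4.04 ± 1.5 to 0.867 ± 0.16 TPM (-1.39, SE 0.24, limma FDR 0.0029). The other 5 were CCND1, CDK4, CDC25A, SKP2 and CDKN2D, named after their values were seen, with log2 fold changes between -0.85 and -0.59. Of the 9 genes not tested, CCND2, CDKN2A and CDKN2B were listed at 0 in every library.

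Downstream, most of the tested targets of E2F at the G1/S transition and of FOXM1 and MYBL2 in G2 and mitosis were lower in CDCA. Of 40 E2F targets, 39 were found by symbol and 31 were tested, and 29 of these, or 93.5%, fell at an FDR under 0.05, with none higher, against 23.9% lower and 29.3% higher over all genes tested. The summed level of the 39 was 803 to 855 TPM in CON and 263 to 269 TPM in CDCA. The median log2 fold change was -1.39, against 0.05 over all genes tested. HELLS and DSCC1, which was named after its values were seen, were under 1 TPM on average in CDCA and reached the filter through CON, so they had to differ, and without them 27 of 29 fell. On the log2(TPM + 1) scale the largest changes were those of HELLS, a chromatin remodeler, from 9.86 ± 3.0 to 0.120 ± 0.14 TPM (log2 fold change -3.25, SE 0.20, limma FDR 4.1e-05), of TK1, thymidine kinase, from 58.1 ± 0.90 to 9.23 ± 0.61 TPM (-2.53, SE 0.06, limma FDR 2.0e-06), and of RRM2, the regulated subunit of ribonucleotide reductase, from 233 ± 12 to 40.9 ± 1.5 TPM (-2.48, SE 0.05, limma FDR 2.0e-06). The exceptions were BRCA1 and EZH2, named after their values were seen, with log2 fold changes of -0.20 (limma FDR 0.25) and 0.14 (limma FDR 0.43).

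Of 40 targets of FOXM1 and MYBL2, 38 were found and 33 were tested, and 30, or 90.9%, fell at an FDR under 0.05, with none higher, against the same 23.9% and 29.3%. The 38 genes summed to 1329 to 1453 TPM in CON and 649 to 654 TPM in CDCA, and the median log2 fold change was -1.38. AURKB, a mitotic kinase, fell from 20.1 ± 0.65 to 3.59 ± 0.24 TPM (log2 fold change -2.20, SE 0.07, limma FDR 3.0e-06), CENPF, a kinetochore protein, from 17.8 ± 3.0 to 4.33 ± 1.4 TPM (-1.84, SE 0.22, limma FDR 0.00056), and TTK, a spindle checkpoint kinase, from 14.0 ± 2.0 to 3.22 ± 0.33 TPM (-1.82, SE 0.12, limma FDR 4.6e-05). CDK1, also named after its values were seen, fell from 61.6 ± 4.3 to 19.4 ± 0.88 TPM (-1.62, SE 0.06, limma FDR 8.0e-06). The study, in contrast, reports CDK1 as upregulated by CDCA, and the cause of this difference was not tested. ANLN, NEK2 and PTTG1, named after their values were seen, did not pass, and their log2 fold changes were -0.97, -0.14 and -0.60 (limma FDR 0.056, 0.52 and 0.16). These lists hold genes that were already known to fall in these libraries, and the regulators share target genes, so the counts describe the lists and do not tell the regulators' effects apart.

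**Figure D5:**
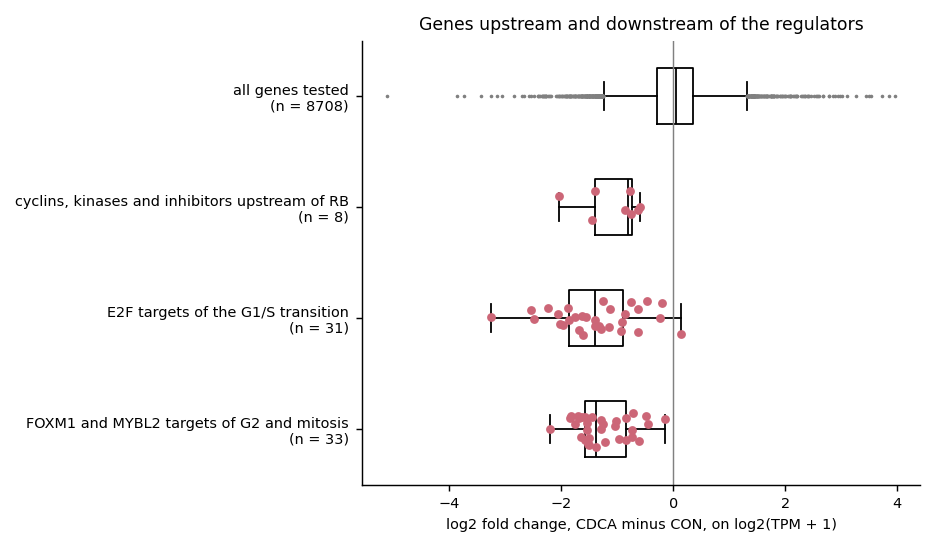
log2 fold change (CDCA minus CON, on log2(TPM + 1)) of all 8708 tested genes and of 3 lists around the regulators, as box plots with the median, quartiles and whiskers to 1.5 times the interquartile range, and with each list gene as a point. The medians of the lists are -0.81, -1.39 and -1.38, and of their 72 genes 1 lies above 0.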

How the data were processed

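Total RNA libraries (Illumina TruSeq) from 6 samples, grouped by their titles into CON and CDCA, were quantified by the authors with RSEM, and the deposited values are TPM per listed transcript for 63041 transcripts of 31908 pig Ensembl gene IDs. The aligner and annotation release are not given in the methods, and the submitters' processing notes name Bowtie 0.12.2 and the mouse build mm10, which the pig IDs do not match, so no coordinates were used. The study states the clean reads per sample, but the deposited TPM carry no counts, so the reads behind each value are not known here; edgeR, which the authors used, needs counts.

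TPM were summed per gene ID. Genes whose mean reached 1 TPM were tested with limma 3.58.1 (trend, R 4.3.3) on log2(TPM + 1). Symbols were taken from a name table keyed by Ensembl ID, then from the deposited names, then from 5 descriptions; SLBP, CCNA2, CKS1B and KRT19 were not matched. The regulators, lists and tests were chosen with earlier results of these data known. All 10 regulators were named, with the 3 largest changes per list and the family and MuvB genes. The steps were tested on simulated data. Transcripts were also tested by themselves, an alternative added after seeing the data. The other alternatives were the pseudocount, the filter on low values, the scaling of the totals, the highest transcript in place of the sum, limma without the trend, the replicate number as a block and leaving out each library.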

Additional observations from a re-analysis of the deposited data

How the results depend on the processing

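The falls of E2F8, FOXM1 and RB1 passed an FDR of 0.05 under every alternative in which the gene was tested (the second FOXM1 transcript by itself did not): their log2 fold changes lay between -2.61 and -1.97, -2.14 and -1.65, and -0.52 and -0.32, and with each library left out between -2.03 and -1.93, -1.84 and -1.43, and -0.41 and -0.32. Of the regulators, 3 or 4 passed as lower with a library left out and 2 or 3 were called, against 4 and 2 with all libraries. Totals without the mitochondrial DNA genes raised the count that passed as lower to 7, with TFDP1, MYBL2 and E2F3, and a filter at a mean of 5 TPM left 1 called, MYBL2, since E2F8 and FOXM1 were no longer tested. RBL1 did not pass with no filter (FDR 0.098), by its highest transcript (0.29), without the trend (0.053) or with the replicate block (0.085). The replicate numbers did not pair the samples: same-numbered deviations correlated at -0.09 to -0.04, and no sample correlated best with its own number. With the replicate block, 4218 genes of the whole table passed against 4635 without it, and 4 regulators passed as lower, with MYBL2 (FDR 0.0055) in the place of RBL1. Over the whole table, 2085 genes passed as lower and 2550 as higher, 45.0% and 55.0% of those that passed. Without the mitochondrial DNA genes 2905 passed as lower and 1680 as higher, 63.4% and 36.6%. Genes called higher, 306, became 509 with a pseudocount of 0.1 TPM, 197 with the filter at 5 TPM and 523 with the listed TPM rescaled to 1000000, and those called lower, 340, became 505, 238 and 481.

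The median of the E2F targets was -1.52 with the pseudocount of 0.1 TPM, -1.15 with no filter, -1.51 with the filter at 5 TPM and -1.56 without the mitochondrial DNA genes. That of the FOXM1 and MYBL2 targets was -1.51, -1.27, -1.50 and -1.55 in the same order, -1.45 with the rescaled TPM and -1.47 by the highest transcript. With each library left out they stayed between -1.42 and -1.36 and between -1.47 and -1.28. With each library left out the log2 fold change of E2F5 ran from -0.094 to 0.027, above 0 without CON replicate 1 or CDCA replicate 2, and that of LIN37 from -0.044 to 0.054, below 0 without CON replicate 1, CDCA replicate 2 or CDCA replicate 3. LIN37 was also below 0 without the mitochondrial DNA genes (-0.16) and at the same median ratio (-0.041), and neither gene passed in any of these. Where no cause is named, the cause was not tested.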
